A study of Mus musculus with 12 samples.

Results

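Interferon response genes were followed in hematopoietic stem and progenitor cells (HSPCs; Lin−CD127−c-kit+Sca-1+) sorted from mouse bone marrow. The set is a list of 52 gene symbols, made of targets of type I and type II interferon with 3 interferon receptor genes, and it was chosen by name. By role they are 3 receptors, 5 transcription factors, 7 RNA sensors and regulators, 5 genes of the 2′-5′-oligoadenylate synthetase (OAS) family, 16 other antiviral effectors, 3 genes of the ISG15 system, 7 GTPases, 3 genes of the PARP family and its partner, and 3 membrane factors. All 52 were among the 20792 genes listed for every library. Their RNA was sequenced in bulk from WT male mice in 4 groups of 3 libraries. ND mice ate a normal diet (chow with 0.5% NaCl) and HSD mice a high-salt diet (chow with 8% NaCl and water with 1% NaCl), each for 8 weeks and, by the study's methods, from an age of 4 to 6 weeks. ND ICH and HSD ICH mice had the same diets and then intracerebral hemorrhage (ICH), a bleed into the brain made by injecting the animal's own blood, and were sampled on day 7. All mice were given ND after ICH, so HSD ICH cells had met the high-salt diet only before it. Each ND and HSD library pooled 3 animals, and no number of animals was found for the ICH groups.

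Interferons are cytokines of antiviral and antibacterial defense. Type I interferons bind the receptor IFNAR1-IFNAR2 and act through the kinases JAK1 and TYK2 on a complex with STAT2 and IRF9 that binds the interferon-stimulated response element (ISRE). Type II interferon binds IFNGR1-IFNGR2 and acts through JAK1 and JAK2 on factors that bind the gamma-activated site (GAS). Hematopoietic stem cells are known to express interferon-induced genes at rest, to leave quiescence when given interferon, and to display more Sca-1, the product of the interferon-induced gene Ly6a.

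ISRE and GAS sequences in promoters were located, since these elements are what most of the 52 genes share by their biology. RefSeq promoters of GRCm38.p6, from 250 bases before to 50 bases after each start site, were found for 41 of the 52 genes. An ISRE core (GAAA, any 2 bases and GAAA, on either strand) stood in 21 of these 41 genes (51.2%), against 3.99% of all 27025 genes of the promoter table. A GAS (TTCNNNGAA, which reads the same on both strands) stood in 15 of 41 (36.6%), against 9.55% of all genes. Both were found in 8 genes and neither in 13, and an ISRE match and a GAS match shared letters in 2 of the genes. In a list of interferon-induced genes outside the 52, 79 had promoters, 33 of them with the ISRE core (41.8%) and 7 with a GAS (8.86%). Among genes named below for changes after ICH, Irf9, Trim25 and Ifngr1 had neither match, and no promoter was found for Oas2 and Ifi27. Shown in the direction of the gene (GRCm38.p6) are 9 windows upstream of the start site, from genes with a match. The match named in each label is in capitals. In lower case, the windows of Igtp and Irgm2 also hold a GAS. That of Isg15 holds further ISRE matches that overlap the one in capitals. The windows show how an antiviral effector, a signaling factor and an interferon-induced GTPase carry the same core, and that Igtp and Irgm2 carry almost the same window.
Oas3, chr5:120777713-120777746, minus strand, ISRE: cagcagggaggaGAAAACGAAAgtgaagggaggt
Slfn5, chr11:82951935-82951968, plus strand, ISRE: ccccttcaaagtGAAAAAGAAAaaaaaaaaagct
Ifit3, chr19:34583395-34583428, plus strand, ISRE: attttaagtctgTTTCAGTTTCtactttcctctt
Isg15, chr4:156200869-156200902, minus strand, ISRE: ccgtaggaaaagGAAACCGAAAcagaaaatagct
Stat2, chr10:128270264-128270297, plus strand, ISRE: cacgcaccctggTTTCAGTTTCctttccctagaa
Gbp7, chr3:142530271-142530304, plus strand, ISRE: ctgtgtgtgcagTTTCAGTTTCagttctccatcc
Igtp, chr11:58199510-58199543, plus strand, ISRE: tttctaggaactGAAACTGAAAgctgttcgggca
Irgm2, chr11:58214901-58214934, plus strand, ISRE: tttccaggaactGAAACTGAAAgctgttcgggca
Irf1, chr11:53769912-53769944, plus strand, GAS: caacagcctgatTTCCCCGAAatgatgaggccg

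Reads in the listed genes numbered 8678304 to 27491973 per library, and levels are given in CPM, read counts scaled to the size of the library. The lowest of all values of the 52 genes was 7 reads (Ifit3 in HSD ICH replicate 2), and 51 genes had at least 10 reads in every library. Markers of HSPCs were present, with Kit at 329 to 487 CPM, but Ly6a, which encodes the Sca-1 of the gate, was at only 2.42 to 6.72 CPM. Other cell types were not evenly spread. Genes of macrophages (15, summed) were highest in HSD replicate 2 (1025 CPM) and ND replicate 1 (576 CPM), and no other library exceeded 234 CPM. The sum of 8 monocyte genes was 1132 CPM in HSD ICH replicate 3 against 143 to 432 CPM elsewhere, and that of 14 HSPC genes was 1048 CPM there against 1564 to 1936 CPM elsewhere. No gene of these 3 lists was at 0 in any library. Of 24 genes that blood cells do not use, 9 were in the table, with sums of 11.5 to 16.8 CPM without ICH and 25.6 to 51.2 CPM after it. Libraries after ICH had 2 to 29 listed genes at 0, against 1393 to 1755 without ICH, so that ICH cannot be told apart from whatever made the libraries differ in this. In bulk RNA, fewer cells of a type and less RNA per cell cannot be told apart either.

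Across libraries the 52 genes were highest in ND HSPCs and lowest in HSD ICH HSPCs. Each gene was set against its own mean over the 12 libraries on the log2(CPM + 0.5) scale, and the median of the 52 differences was 0.37, 0.20 and 0.10 in ND replicates 1 to 3. It was 0.10, 0.06 and −0.04 in HSD libraries, 0.00, 0.03 and 0.04 in ND ICH libraries, and −0.10, −0.37 and −0.45 in HSD ICH libraries. ND replicate 1 held the highest value of 35 of the 52 genes, while HSD ICH replicates 2 and 3 held the lowest of 19 and 24. ND replicate 1 was also the ND library high in macrophage genes, and HSD ICH replicate 3 the library high in monocyte genes. HSD replicate 2 had more macrophage RNA than ND replicate 1, and its interferon median was 0.06. HSD ICH replicate 2 had a median of −0.37 with monocyte and HSPC sums of 354 and 1564 CPM, near those of HSD ICH replicate 1. The part of other cell types in these medians was not tested.

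**Figure D1:**
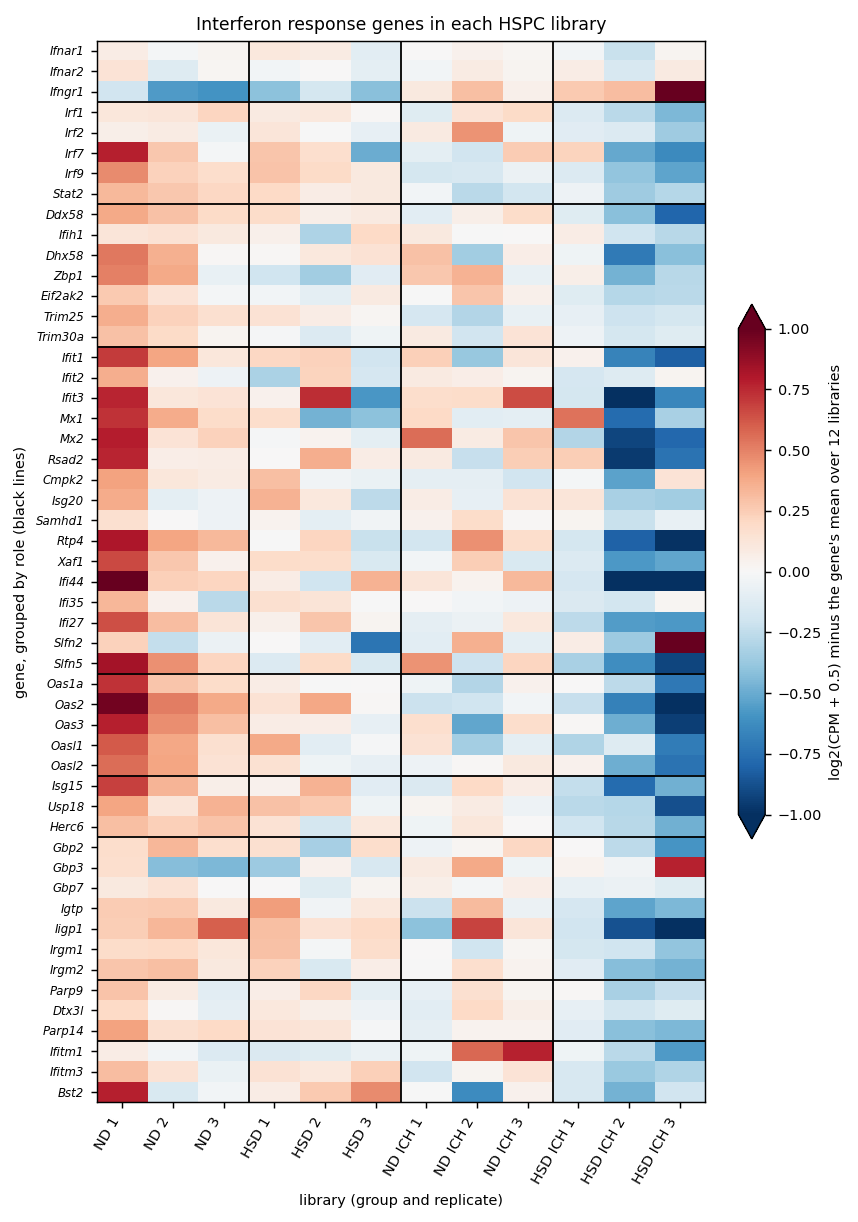
Heat map of the 52 interferon response genes (rows, grouped by role between black lines) in the 12 HSPC libraries (columns). Colour is log2(CPM + 0.5) minus the gene's mean over 12 libraries, cut at −1 and 1. Most rows are red in ND replicate 1 and blue in HSD ICH replicates 2 and 3, while Ifngr1, Gbp3 and Slfn2 are red in HSD ICH replicate 3.

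**Figure D2:**
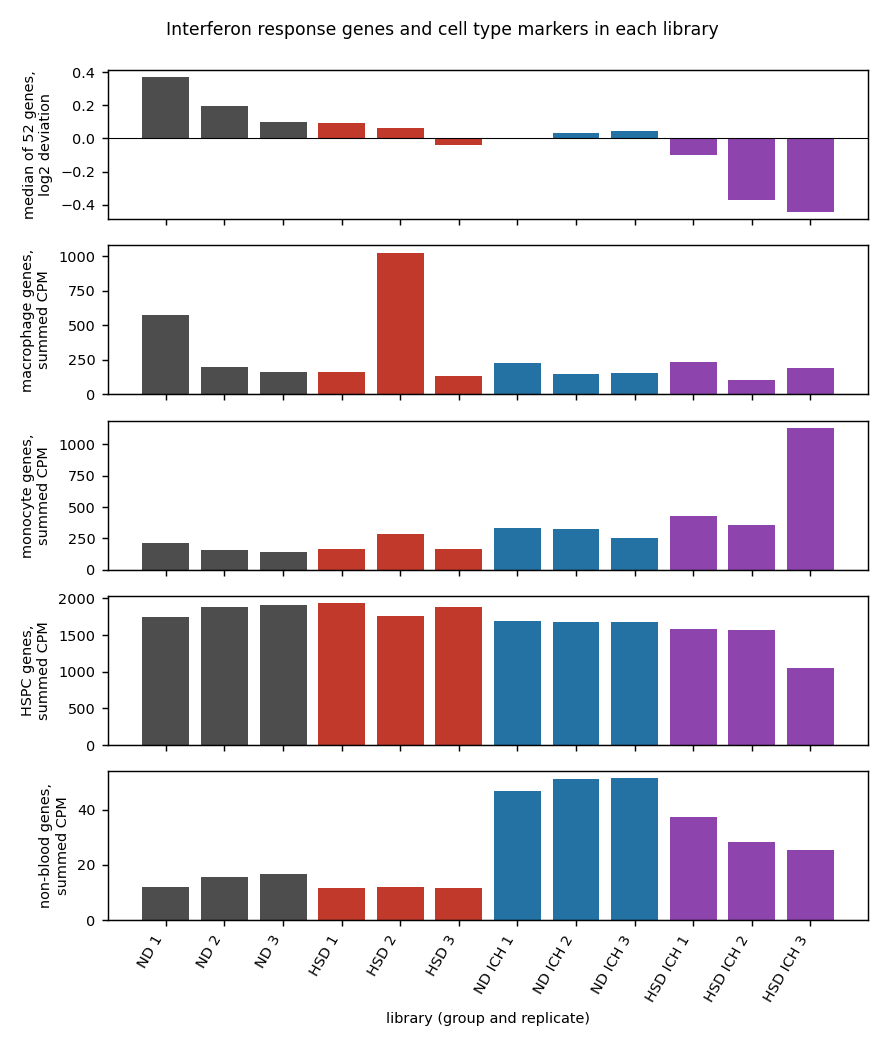
Bars give, for each library, the median log2 deviation of the 52 interferon response genes (top) and the summed CPM of macrophage, monocyte, HSPC and non-blood genes (lower panels, each from 0). ND replicate 1 has the highest interferon median (0.37) and HSD ICH replicate 3 the lowest (−0.45), and the second of these has the highest monocyte sum (1132 CPM).

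The comparison of HSD with ND asked what the high-salt diet alone did to these genes. Most of the 52 had a lower mean in HSD HSPCs, by little, and 4 of 5 OAS genes were among those lower at an unadjusted p under 0.05. Lower means were found for 47 genes and higher means for 5, while 7619 of the 16787 genes tested had lower means. The median log2 fold change was −0.17 against 0.02 over the 16787 genes. At an unadjusted p under 0.05 (limma), 10 of 52 were lower, against a background of 3.28% of all genes, and 0 of 52 were higher, against 3.65%. The 10 were Oas1a, Oas2, Oas3, Oasl2, Mx1, Rtp4, Slfn5, Trim30a, Zbp1 and Herc6. The p-values measure the spread between libraries, each a pool of animals where the methods give it. In 14 genes every HSD library lay below every ND library (background 5.75%), and in 0 above (7.07%). No gene of the 52 passed an adjusted p under 0.05 by limma, edgeR or DESeq2 (background by limma 0.0655% lower and 0.0119% higher). Without ND replicate 1 the count of lower genes dropped from 10 to 2, Oas3 and Rtp4, 2 were higher (Ifngr1 and Gbp3), and the median was −0.10. Without ND replicate 3 it was 17, and without both libraries high in macrophage genes it was 4 (Oas2, Oas3, Rtp4 and Slfn5), all called also with every library.

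After ICH, the comparison of HSD ICH with ND ICH asked what the earlier diet left behind. Again most genes were lower on the high-salt side, now led in fold change by Ifit3, Mx2 and Ifi44 of the antiviral effectors and with all 3 genes of the ISG15 system. Means were lower for 48 genes and higher for 4, while 10874 of the 20079 genes tested had lower means. The median log2 fold change was −0.33 against −0.03 over the 20079 genes. At an unadjusted p under 0.05 (limma), 19 of 52 were lower against a background of 10.2%, and 0 were higher against 5.42%, with 11 lower and 1 higher by DESeq2. The 19 were Mx2, Ifi44, Ifit3, Rtp4, Slfn5, Ifi27, Xaf1, Oas2, Ifitm1, Irf1, Irf2, Ddx58, Eif2ak2, Isg15, Usp18, Herc6, Iigp1, Irgm2 and Parp14. Of the 19, only Ifit3 also had a log2 difference past 1 (background 0.792%). That is on the log2(CPM + 0.5) scale, which understates changes of low genes. The study asked for that size among genes above 10 CPM in at least 3 samples, and Ifit3 was at no more than 3.99 CPM in any library. In 16 genes the groups did not overlap with HSD ICH lower (background 13.3%), and in 0 with HSD ICH higher (10%). No gene passed an adjusted p under 0.05 by limma, edgeR or DESeq2, as for all genes in the limma comparison (0%). Leaving out HSD ICH replicate 1, the highest of its group by the median of the 52 genes, gave 31 lower genes, and leaving out ND ICH replicate 2, HSD ICH replicate 2 or HSD ICH replicate 3 gave 12 each. The median without HSD ICH replicate 3 was −0.23.

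Both diet comparisons share no library. Rtp4, Slfn5, Oas2 and Herc6 were lower at an unadjusted p under 0.05 in both, which is 40% of the 10 genes called without ICH and 21.1% of the 19 called after it. Over the 16687 genes tested both times these shares were 28.5% and 14.5%. A lower mean in both was found for 45 of 52 genes, and for 26.4% of those 16687. Whether the diet difference itself differed with ICH was tested as an interaction in 1 limma model of all libraries. Ifitm1 was the only gene of the 52 with an unadjusted p under 0.05 and a more negative difference after ICH (background 6.13%), 0 had a more positive one (2.22%), and none passed after adjustment (0%). Leaving out single libraries gave 0 (ND ICH replicate 2) to 7 such genes (HSD ICH replicate 1), with 4 without ND replicate 1 or ND ICH replicate 1 and 2 without HSD replicate 3.

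ICH against no ICH was compared within each diet. On ND, the lower genes after ICH included all 5 of the OAS family, the sensor regulator Trim25 and the type I signaling factors Irf9 and Stat2, while Ifngr1 was higher. At an adjusted p under 0.05 (limma), 4 genes fell (Oas2, Trim25, Irf9 and Stat2; background 3.23%) and Ifngr1 rose (background 13.5%). At an unadjusted p under 0.05, 15 of 52 were lower against a background of 10.3% and 2 higher against 18.1%, with a median log2 fold change of −0.23 against 0.01 over 19387 genes. The groups did not overlap in 16 genes that were lower after ICH (14.3%) and in 1 that was higher (19.1%). Without ND replicate 1 the 15 lower genes became 6 and the median −0.13. None of the 5 adjusted calls held with the study's filter (CPM above 10 in at least 3 of the 12 libraries), and leaving out 1 library gave 2 to 8 calls, with 2 without ND ICH replicate 1 or 3, 3 without ND ICH replicate 2 and 8 without ND replicate 3. Leaving out single libraries ended the calls of Oas2 (−0.73 without ND ICH replicate 1), Trim25 (−0.43 without ND ICH replicate 1 and −0.48 without replicate 3), Irf9 (−0.46 to −0.40 without any 1 ND ICH library) and Stat2 (−0.49 to −0.37 without ND replicate 2 or any 1 ND ICH library). The Ifngr1 call held each time and was lost when all 12 libraries were fitted together.

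On HSD, the genes that fell after ICH were Irf9, Ifi27 and Ifitm3 (adjusted p under 0.05, limma; background 1.26%), and none rose (5.31%). At an unadjusted p under 0.05, 23 of 52 were lower against a background of 9.73% and 1, Ifngr1, was higher against 11.8%. The median log2 fold change was −0.35 against −0.01 over 18082 genes, and 23 genes did not overlap between groups with HSD ICH lower (14.5%), against 1 with HSD ICH higher (14.2%). Leaving out HSD replicate 1 gave 14 lower genes at an unadjusted p under 0.05 and leaving out HSD ICH replicate 2 gave 13. None of the 3 adjusted calls held on leaving out any 1 library, where the log2 fold changes were −0.65 to −0.46 for Irf9, −0.68 to −0.50 for Ifi27 and −0.50 to −0.40 for Ifitm3. Without HSD ICH replicate 3 Ifngr1 was called instead, with a log2 fold change of 0.62. The number of the 52 genes called was 8 on leaving out HSD replicate 2 and HSD ICH replicate 3 together, and 13 when all 12 libraries were fitted together. The comparisons within each diet share their libraries with the diet comparisons. At an unadjusted p under 0.05 (limma), 9 genes were lower after ICH on both diets, 60% of the 15 on ND and 39.1% of the 23 on HSD. These were Irf9, Stat2, Ddx58, Trim25, Ifi27, Oas2, Herc6, Irgm1 and Parp14. The share of all genes lower on both diets was not computed.

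**Figure D3:**
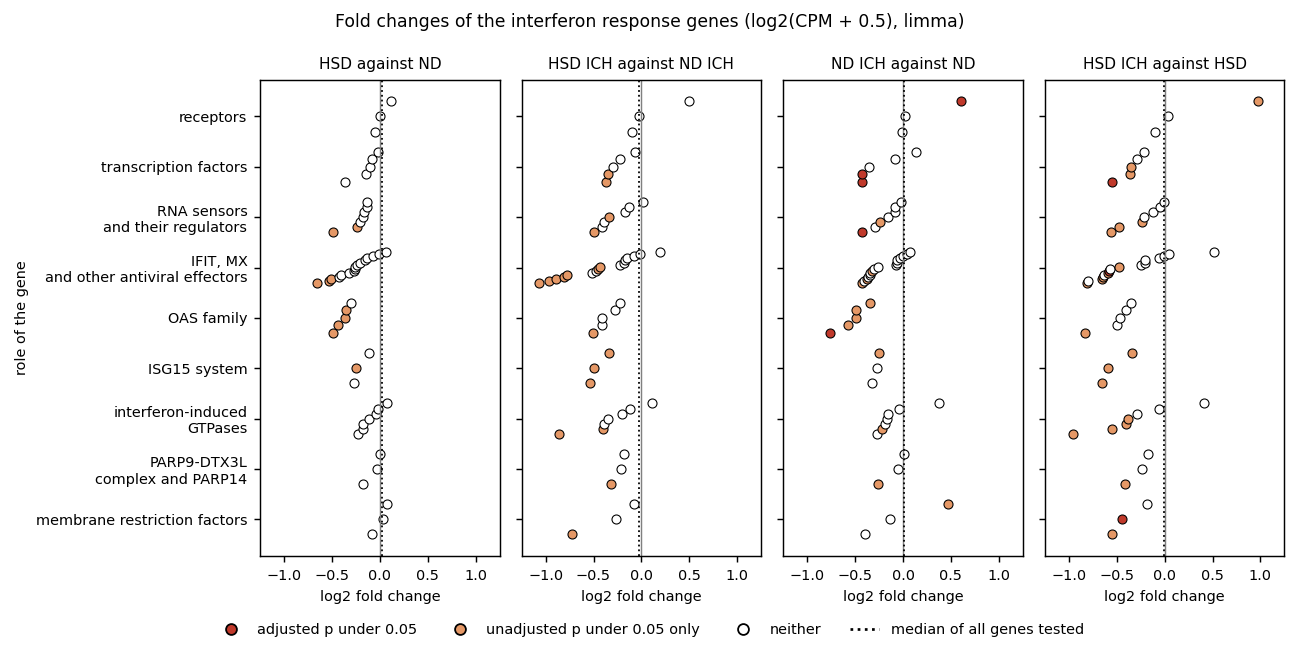
Log2 fold change on the log2(CPM + 0.5) scale (x axis) of each of the 52 genes (points), by role (y axis), in 4 comparisons (panels). Red points passed an adjusted p under 0.05, orange ones only an unadjusted p under 0.05, white ones neither, and the dotted line is the median of all genes tested. Most points lie left of the dotted line in each panel, and Ifngr1 is the rightmost receptor in all 4.

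None of the 3 receptor genes was lower at an unadjusted p under 0.05 in any comparison, and Ifngr1 rose after ICH on ND. Ifnar1, a subunit of the type I receptor, had a mean of 54.5 CPM in ND, and 54.5, 54.2 and 50.8 CPM in HSD, ND ICH and HSD ICH. Its partner Ifnar2 had means from 70.6 CPM (HSD) to 74.0 CPM (ND ICH), and neither gene passed a test in any comparison (log2 fold changes from −0.10 to 0.04, SE 0.0738 to 0.109). Ifngr1, the ligand-binding subunit of the type II receptor (chr10:19591949-19610229, GRCm38), stood at 68.2, 52.4 and 51.3 CPM in ND, 58.5, 69.1 and 58.2 CPM in HSD, 83.3, 96.0 and 80.9 CPM in ND ICH and 93.8, 97.0 and 199 CPM in HSD ICH. Every ICH library was above every library without ICH, and HSD ICH replicate 3, the library with the most monocyte RNA, was far above the rest. Ifngr1 rose after ICH on ND from 57.3 ± 9.44 CPM (SD, n = 3) to 86.7 ± 8.08 CPM (SD, n = 3), by 0.60 on the log2 scale (SE 0.119, adjusted p = 0.00512, limma). On HSD the log2 fold change was 0.98 (SE 0.253, adjusted p = 0.0531, limma), and 0.62 without HSD ICH replicate 3. Monocyte genes moved with it, from sums of 143 to 289 CPM without ICH to 250 to 1132 CPM after ICH, and their part in it was not tested. Between HSD ICH and ND ICH the Ifngr1 difference of 0.49 (adjusted p = 0.363, limma) became 0.14 without HSD ICH replicate 3. Per kilobase of exon, ND levels were 22.0 CPM per kb for Ifnar2, 20.1 for Ifngr1 and 9.17 for Ifnar1, and in HSD ICH Ifngr1 was first at 45.7.

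Among the transcription factors, Irf9 fell after ICH on both diets and Stat2 on ND, and Irf1 and Irf2 were lowest in HSD ICH. Irf9, the DNA-binding part of the type I complex (chr14:55603571-55610030), stood at 65.2, 55.0 and 52.9 CPM in ND, 57.2, 53.4 and 50.1 CPM in HSD, 41.4, 41.8 and 44.9 CPM in ND ICH and 42.5, 35.5 and 32.3 CPM in HSD ICH. Libraries with and without ICH did not overlap on either diet. Irf9 fell by 0.42 on the log2 scale after ICH on ND (SE 0.0963, adjusted p = 0.0118, limma) and by 0.54 on HSD (SE 0.122, adjusted p = 0.0307, limma). Stat2, which carries the transactivating domain of that complex (chr10:128270559-128292849), went from 33.1, 31.7 and 30.3 CPM in ND to 25.8, 21.7 and 23.1 CPM in ND ICH, without overlap. It fell by 0.43 on the log2 scale (SE 0.0973, adjusted p = 0.0123, limma), and on HSD its change of −0.36 had an adjusted p of 0.130 (limma). Irf1, a factor induced by type II interferon, had group means of 56.9 CPM in ND and 53.7 CPM in HSD. It stood at 47.1, 56.5 and 58.5 CPM in ND ICH and 46.6, 42.5 and 37.5 CPM in HSD ICH, and all HSD ICH values lay below all ND ICH values (−0.35, adjusted p = 0.275, limma). Irf2, which binds the same sites as Irf1 and can repress them, stood at 63.2, 81.6 and 57.6 CPM in ND ICH and 54.9, 54.1 and 46.5 CPM in HSD ICH (−0.37, adjusted p = 0.286, limma). Irf2 did not overlap either, and ND ICH replicate 2 was its highest library. The difference between its diet differences with and without ICH was −0.35 (adjusted p = 0.608, limma), and that of Irf1 −0.27 (adjusted p = 0.627, limma). Irf7, the factor that amplifies type I interferon, had group means of 14.4, 11.1, 11.0 and 9.08 CPM in ND, HSD, ND ICH and HSD ICH, and passed no test at an unadjusted p under 0.05.

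The RNA sensors and their regulators had medians below 0 in the 4 comparisons, from −0.33 (HSD ICH against ND ICH) to −0.16 (ND ICH against ND). Trim25, a ubiquitin ligase of RIG-I signaling (chr11:88999376-89020293), went from 92.7, 84.1 and 80.0 CPM in ND to 64.0, 58.6 and 68.1 CPM in ND ICH, without overlap. It fell by 0.43 on the log2 scale (SE 0.0892, adjusted p = 0.00730, limma). Ddx58, which encodes RIG-I, stood at 39.1, 43.8 and 47.7 CPM in ND ICH and 38.5, 31.3 and 24.1 CPM in HSD ICH (−0.49, adjusted p = 0.267, limma). Eif2ak2, the RNA-activated kinase PKR, was the other sensor lower at an unadjusted p under 0.05 in that comparison (−0.33, adjusted p = 0.267, limma). Zbp1, a sensor of Z-form nucleic acids, and Trim30a were the ones lower in HSD than in ND at that level (−0.49 and −0.23). Ifih1, which encodes MDA5, stayed between 21.7 and 31.2 CPM in all libraries and passed no test. Dhx58, which encodes the helicase LGP2, had group means of 17.6, 15.0, 14.4 and 10.8 CPM in ND, HSD, ND ICH and HSD ICH, and its highest log2 fold change in size was −0.48 (adjusted p = 0.173, limma), between HSD ICH and HSD.

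The OAS family, enzymes that detect double-stranded RNA and activate RNase L, with 2 OAS-like genes, was lower in HSD than in ND for 4 of 5 genes at an unadjusted p under 0.05, and lower after ICH on ND for 5 of 5, against 3.28% and 10.3% of all genes. Without ND replicate 1, the ND library high in macrophage genes, Oas3 was the 1 OAS gene still called for the diet (−0.36), and Oas1a and Oas2 were the ones still called for ICH on ND (−0.33 and −0.59). Oas3 (chr5:120753098-120777661) stood at 24.8, 19.9 and 17.7 CPM in ND, 15.1, 15.0 and 13.5 CPM in HSD, 16.1, 9.85 and 16.2 CPM in ND ICH and 14.4, 10.1 and 7.22 CPM in HSD ICH. HSD lay below ND in all libraries, while ND ICH and HSD ICH overlapped. Its diet difference without ICH was −0.49 (SE 0.133, adjusted p = 0.369, limma) and stayed between −0.60 and −0.36 on leaving out any 1 library. Its neighbour Oas2 (chr5:120730333-120749853) stood at 29.5, 21.5 and 19.5 CPM in ND, 16.5, 19.7 and 15.0 CPM in HSD, 12.8, 12.96 and 14.6 CPM in ND ICH and 12.6, 9.17 and 6.94 CPM in HSD ICH. Each ICH group lay below its diet's group without ICH. Diets overlapped without ICH and were narrowly apart after it. Oas2 fell by 0.76 on the log2 scale after ICH on ND (SE 0.153, adjusted p = 0.00547, limma), the most negative of its family there, and its −0.83 on HSD had an adjusted p of 0.0523 (limma). The diet difference of Oas2 was −0.44 without ICH (adjusted p = 0.594, limma) and −0.51 after it (adjusted p = 0.293, limma). Oasl2 had a diet difference of −0.36 without ICH (adjusted p = 0.569, limma). The group means of Oas1a were 25.2, 19.2, 17.6 and 15.3 CPM in ND, HSD, ND ICH and HSD ICH, and those of Oasl1 6.62, 5.30, 4.59 and 3.72 CPM. Oasl1 represses translation of Irf7 in mouse cells, and was the one of the family not lower in HSD at an unadjusted p under 0.05 (−0.30, adjusted p = 0.788, limma). Oas1a has near-identical neighbours in the mouse genome, so its reads may be shared among them.

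Of 16 IFIT, MX and other antiviral effectors, 3 had lower HSD than ND levels at an unadjusted p under 0.05, and 7 had lower HSD ICH than ND ICH levels, where 3.28% and 10.2% of all genes were lower. None of the 16 passed the interaction at that level. Rtp4, a chaperone induced by type I interferon (chr16:23520291-23614222), stood at 18.1, 13.4 and 12.8 CPM in ND, 10.1, 11.8 and 8.56 CPM in HSD, 8.81, 14.0 and 11.5 CPM in ND ICH and 8.88, 5.54 and 4.84 CPM in HSD ICH. HSD lay below ND in every library, and after ICH the groups overlapped only in the first replicates. The differences were −0.51 (SE 0.163, adjusted p = 0.524, limma) and −0.81 (SE 0.245, adjusted p = 0.260, limma). Slfn5, of the interferon-induced Schlafen family (chr11:82951349-82964840), stood at 17.8, 13.6 and 11.4 CPM in ND, 8.86, 11.3 and 8.77 CPM in HSD, 13.5, 8.42 and 11.5 CPM in ND ICH and 7.72, 6.21 and 4.95 CPM in HSD ICH. It did not overlap between diets in either state, with differences of −0.53 (adjusted p = 0.534, limma) and −0.77 (adjusted p = 0.256, limma). Mx1, an antiviral GTPase (chr16:97447035-97462907), stood at 7.77, 5.98 and 5.20 CPM in ND and 5.19, 3.11 and 3.28 CPM in HSD, where the highest HSD value lay just under the lowest ND value (−0.66, adjusted p = 0.583, limma). After ICH Mx1 overlapped between diets.

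Its relative Mx2 (chr16:97535308-97560900) stood at 7.63, 4.67 and 5.01 CPM in ND, 4.16, 4.32 and 3.91 CPM in HSD, 6.44, 4.48 and 5.21 CPM in ND ICH and 3.35, 2.00 and 2.24 CPM in HSD ICH. All HSD ICH libraries lay below the 9 others. HSD ICH against ND ICH gave −0.97 for Mx2 (SE 0.230, adjusted p = 0.241, limma), from −1.15 to −0.84 on leaving out single libraries. It was the only one of the 52 genes with an adjusted p under 0.05 in this comparison when all 12 libraries were fitted together. Ifi44, an interferon-induced protein of the cytoplasm (chr3:151730922-151749960), stood at 11.4, 10.7 and 13.2 CPM in ND ICH and 9.22, 4.88 and 4.98 CPM in HSD ICH, again without overlap (−0.89, adjusted p = 0.245, limma). Ifit3, whose product binds that of Ifit1, the sensor of foreign RNA caps, stood at 2.50, 2.51 and 3.67 CPM in ND ICH and 1.84, 0.517 and 1.19 CPM in HSD ICH. Its difference was −1.07 (SE 0.314, adjusted p = 0.260, limma) without overlap, on few reads, and reads may be shared with the near-identical Ifit3b, which gave −0.92 (adjusted p = 0.242, limma). Ifi27, a mitochondrial interferon-induced protein, stood at 20.4, 23.9 and 20.0 CPM in HSD and 16.3, 13.2 and 13.04 CPM in HSD ICH. It fell by 0.58 on the log2 scale (SE 0.142, adjusted p = 0.0418, limma), without overlap. Xaf1, a promoter of apoptosis, was lower in HSD ICH than in ND ICH (−0.43, adjusted p = 0.295, limma), with group means of 15.6, 12.8, 12.4 and 9.10 CPM. Ifit1 and Rsad2, which encodes the radical-SAM enzyme viperin, were scarce, with group means of 6.72, 5.26, 4.95 and 3.50 CPM and 9.26, 8.10, 7.48 and 5.42 CPM, in the same order of groups, and passed no test between diets (−0.47 and −0.52 after ICH). Ifi35, Isg20, Samhd1, Cmpk2, Ifit2 and Slfn2 passed no test in either diet comparison, and Slfn2 was highest in HSD ICH replicate 3 (12.2 CPM against 3.28 to 7.52 CPM elsewhere).

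**Figure D4:**
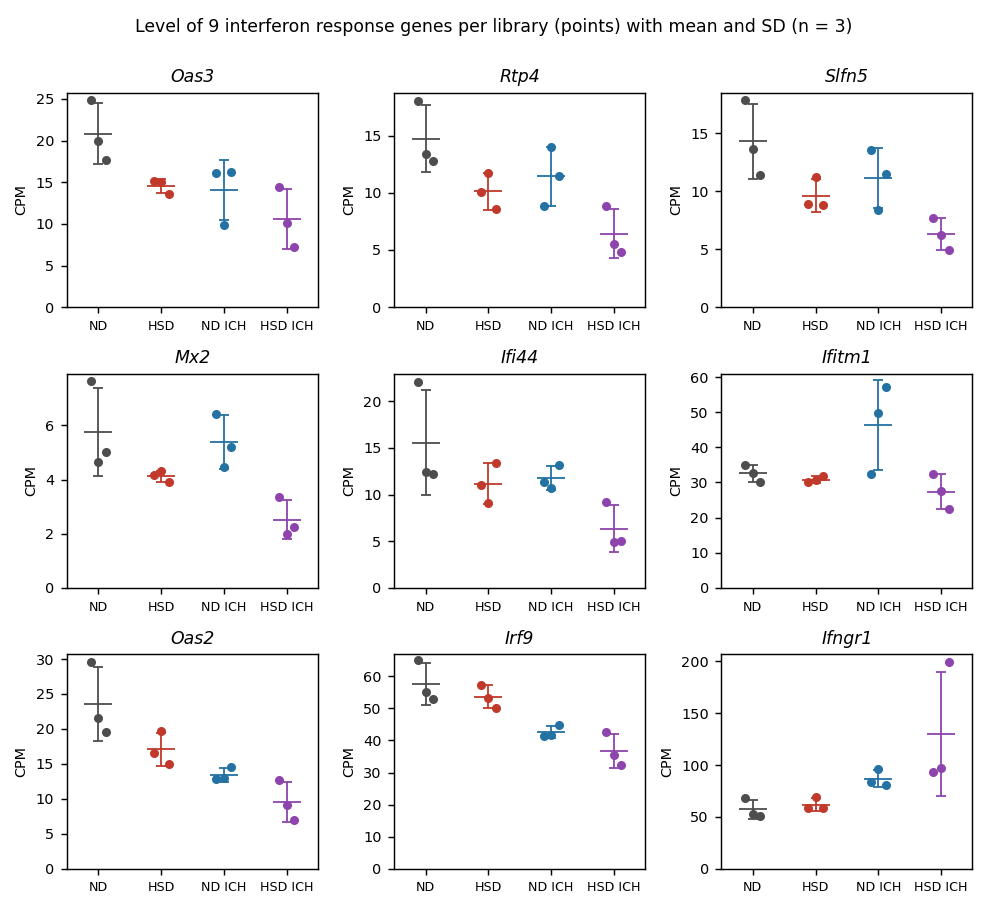
Level in CPM (y axis, from 0) of 9 of the genes in each library (points), with the mean (bar) and SD (n = 3) of each group (x axis, without and then with ICH). Oas3, Rtp4 and Slfn5 are lower in every HSD library than in every ND library, Mx2 and Ifi44 lower in every HSD ICH library than in every ND ICH library, and Ifngr1 is higher in every ICH library than in those without ICH.

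The ISG15 system attaches the ubiquitin-like protein ISG15 to other proteins. All 3 of its genes were lower in HSD ICH than in ND ICH at an unadjusted p under 0.05, against 1 of 3 without ICH, where 10.2% and 3.28% of all genes were lower. None of the 3 passed the interaction at an unadjusted p under 0.05. Isg15 itself was scarce, at 1.64, 2.21 and 1.98 CPM in ND ICH and 1.50, 0.887 and 1.19 CPM in HSD ICH, without overlap (−0.54, adjusted p = 0.301, limma). Herc6, the mouse ligase for ISG15, stood at 35.3, 33.7 and 34.8 CPM in ND, 31.5, 25.2 and 30.7 CPM in HSD, 27.6, 30.9 and 28.6 CPM in ND ICH and 24.8, 23.4 and 20.3 CPM in HSD ICH, and the diets did not overlap in either state (−0.25 and −0.34, adjusted p = 0.670 and 0.270, limma). Usp18, which removes ISG15 and blocks IFNAR2 signaling, had a difference of −0.50 after ICH (adjusted p = 0.281, limma).

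The interferon-induced GTPases, which attack the vacuoles of intracellular microbes, were not lower in HSD than in ND at an unadjusted p under 0.05 for any of 7 genes (median −0.11). Of all genes 3.28% were lower there. In HSD ICH against ND ICH, 2 of 7 were lower at that level, where 10.2% of all genes were. They were Irgm2 (−0.40, adjusted p = 0.265, limma) and Iigp1 (−0.86, adjusted p = 0.275, limma). After ICH against no ICH, 4 of 7 were lower on HSD and 1 of 7 on ND, against 9.73% and 10.3% of all genes, with Irgm1 lower on both diets. Iigp1 stood at 5.78, 12.9 and 8.59 CPM in ND ICH, with replicate 2 far above the others, and at 6.83, 4.07 and 3.29 CPM in HSD ICH, which overlapped. Irgm1, which controls the other GTPases, had group means of 39.0, 38.7, 33.4 and 29.0 CPM in ND, HSD, ND ICH and HSD ICH, Igtp 16.8, 16.4, 14.8 and 11.1 CPM, Gbp2 19.8, 17.1, 17.6 and 14.0 CPM and Gbp7 63.4, 58.7, 61.4 and 56.4 CPM. Of these 4, Gbp7 did not overlap between the diets after ICH, with HSD ICH lower (−0.12, adjusted p = 0.530, limma). Gbp3 went the other way in HSD ICH replicate 3, at 68.6 CPM against 29.1 to 52.1 CPM in the other libraries. Reads of guanylate-binding protein and Irgm genes can be shared among close copies, and the annotated spans of Igtp and Irgm2 overlap on the same strand. Of the PARP9-DTX3L complex, a DNA-damage and interferon-linked ubiquitin ligase whose genes overlap at their starts, neither Parp9 nor Dtx3l passed a test. Parp14, a mono-ADP-ribosyltransferase, was lower in HSD ICH than in ND ICH (−0.32, adjusted p = 0.279, limma).

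The 3 membrane restriction factors, which hold viruses at cell membranes, differed from each other. Ifitm1 (chr7:140967221-140969825) stood at 35.0, 32.7 and 30.2 CPM in ND, 30.0, 30.6 and 31.8 CPM in HSD, 32.3, 49.7 and 57.2 CPM in ND ICH and 32.4, 27.5 and 22.3 CPM in HSD ICH. ND ICH replicates 2 and 3 were above all other libraries, and ND ICH replicate 1 was level with HSD ICH replicate 1. Its diet difference was −0.08 without ICH (adjusted p = 0.897, limma) and −0.73 after it (adjusted p = 0.260, limma), and the difference between both was −0.65 (SE 0.248, adjusted p = 0.541, limma). Ifitm3 stood at 32.0, 31.0 and 34.2 CPM in HSD and 25.7, 22.2 and 23.3 CPM in HSD ICH. It fell by 0.44 on the log2 scale (SE 0.110, adjusted p = 0.0460, limma), without overlap. Bst2, which tethers virions, was lower after ICH on HSD at an unadjusted p under 0.05 (−0.55, adjusted p = 0.136, limma).

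The rest of the pathway was described with lists of 26 signaling partners and 103 other interferon-induced genes, of which 95 were in the table. Of the signaling partners, 0 were lower and 1 was higher in HSD than in ND at an unadjusted p under 0.05. All genes gave 3.28% lower and 3.65% higher. For HSD ICH and ND ICH the counts were 2 and 3, against 10.2% and 5.42% of all genes. Irf3, the factor that starts interferon transcription, was the one higher in HSD than in ND (0.21, adjusted p = 0.701, limma). Socs3, a feedback inhibitor, was lower in HSD ICH than in ND ICH (−1.42, adjusted p = 0.260, limma). Ifngr2, the second subunit of the type II receptor, was higher in HSD ICH than in ND ICH (0.41, adjusted p = 0.281, limma). Socs3 in ND ICH replicate 3 was at 24.4 CPM against 3.11 to 6.87 CPM in the other 11 libraries. After ICH on ND, 4 signaling partners fell and 0 rose at an adjusted p under 0.05 (all genes 3.23% and 13.5%), among them Traf3, an adaptor of the pathway that induces interferon (−0.40, adjusted p = 0.0130, limma). On HSD 1 fell against 1.26% of all genes, Irf3 (−0.44, adjusted p = 0.0460, limma).

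Of the other interferon-induced genes, 8 of 89 tested were lower in HSD than in ND and 0 higher at an unadjusted p under 0.05 (all genes 3.28% and 3.65%), with a median of −0.04. They included Trim21, an antibody receptor of the cytosol (−0.30, adjusted p = 0.583, limma), and Ly6a, a gene of the sorting gate, which stood at 6.72, 6.25 and 5.01 CPM in ND and 3.74, 3.32 and 5.18 CPM in HSD with overlap (−0.52, adjusted p = 0.658, limma). After ICH, 18 of 94 were lower in HSD ICH than in ND ICH and 4 higher (all genes 10.2% and 5.42%), with a median of −0.18, the lowest p being those of Ifit3b and Epsti1 (−0.64, adjusted p = 0.242, limma). For ND ICH against ND, 9 of 92 fell and 5 rose at an adjusted p under 0.05, against 3.23% and 13.5% of all genes. Helz2, a coactivator helicase, fell by 0.63 on the log2 scale (adjusted p = 0.00279, limma), and Pml, which forms nuclear bodies, by 0.45 (adjusted p = 0.00490, limma). Phf11a and Ifit1bl1 rose by 1.30 and 1.41 (adjusted p = 2.51e-04 and 8.42e-04, limma) from no more than 0.526 CPM in ND libraries, in the range of the genes that were at 0 more often without ICH. For HSD ICH against HSD, 3 of 91 fell and 2 rose, against 1.26% and 5.31% of all genes. Both enzymes that charge ISG15 were among those that fell, Uba7 by 0.61 (adjusted p = 0.0198, limma) and Ube2l6 by 0.84 (adjusted p = 0.0345, limma). Ifi209, of the DNA-sensor family of p200 proteins, rose by 1.55 (adjusted p = 0.0445, limma), with 77.7 CPM in HSD ICH replicate 3 against 20.5 and 33.7 CPM in the others of its group.

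Of 21 interferon genes searched for, Ifnk and Ifnz were listed, at no more than 1.19 CPM in any library. Genes with and without the ISRE core were both among the lower ones. Of the 21 genes with the core 7 were lower in HSD ICH than in ND ICH at an unadjusted p under 0.05, as were 5 of the 20 without it, and in HSD against ND the counts were 4 of 21 and 2 of 20. Split by GAS, 4 of the 15 genes with it and 8 of the 26 without it were lower in HSD ICH than in ND ICH. In HSD against ND these counts were 1 of 15 and 5 of 26. The shares of all genes were 10.2% and 3.28%, in the same order of comparisons. These counts describe the promoter windows searched and were not tested.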

How the data were processed

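RNA from sorted HSPCs was sequenced in 12 libraries (SMART-Seq Stranded Kit, paired ends). The authors aligned reads with Rsubread, counted them with featureCounts (mm10) and deposited CPM scaled by TMM in edgeR 3.24.3. The strand setting of the counting is not given in the sources used here. Whole reads were recovered from the CPM steps for 100% of values in each library within 0.01 read, though HSD replicate 2 has a step so near a round decimal that its recovery is less certain. Reads per library were 8678304 to 27491973, and no floor was computed since no gene of the set was at 0.

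Groups came from the sample labels. The main test was limma 3.58.1 (R 4.3.3) with a trend on log2(CPM + 0.5), over the libraries compared, on genes that reached 10 reads in 3 or more of them, with Benjamini-Hochberg adjustment over all genes tested. Fold changes are on that scale and understate changes of low genes. Alternatives were pseudocounts of 0.1 and 1, edgeR 4.0.16 (quasi-likelihood) and DESeq2 1.42.0 on the recovered reads, scaling by DESeq2 size factors, no filter, the filter the study states (CPM above 10 in at least 3 libraries, which left 41 of the 52 genes), 1 fit to all 12 libraries, a replicate block, and the omission of libraries. The omission of HSD replicate 2 with HSD ICH replicate 3, and of both with ND replicate 1, was chosen after seeing the data. Libraries of a group differed by more than sampling noise (chi-square over degrees of freedom 4.75 to 50.4). The code was tested on simulated data.

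The 52 genes, the other lists and the tests were chosen with earlier results of these data known. Named by rule were all receptors and transcription factors, all genes past an adjusted p under 0.05 in a comparison (at most 12 each way) and otherwise up to 6 with the smallest unadjusted p under 0.05 in each direction, and up to 4 genes of the other lists. Other genes named were chosen after their values were seen. Gene positions are from GENCODE M21 (GRCm38), which also named 182 of 423 genes without a symbol. Promoters are from RefSeq (GRCm38.p6).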

Additional observations from a re-analysis of the deposited data

How the results depend on the processing

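No called value turned its direction under any alternative run. For HSD against ND, genes lower at an unadjusted p under 0.05 (10) numbered 2 to 17 on leaving out 1 library (2 without ND replicate 1, 17 without ND replicate 3) and 4 without ND replicate 1 and HSD replicate 2, and higher genes 0 to 2. For HSD ICH against ND ICH, lower genes (19) numbered 11 by DESeq2 and 12 to 31 on leaving out 1 library, higher genes 1 by DESeq2, 1 with all 12 libraries in 1 fit and 0 to 1 on leaving out 1 library, and adjusted calls 1 with all 12 libraries in 1 fit. For ND ICH against ND, lower genes (15) numbered 6 to 19 and higher genes (2) 1 to 3 on leaving out 1 library, the 6 without ND replicate 1. Its adjusted calls (5) numbered 8 by DESeq2, 0 with the study's filter, which tests fewer genes, and 2 to 8 on leaving out 1 library. For HSD ICH against HSD, lower genes (23) numbered 13 to 31 on leaving out 1 library. Higher genes (1) numbered 2 by edgeR, 2 by DESeq2, 2 without HSD replicate 2 and HSD ICH replicate 3, and 1 to 3 on leaving out 1 library, the 3 without HSD ICH replicate 2. Adjusted calls there (3) numbered 5 by DESeq2, 7 with no filter, 0 with the study's filter, 13 with all 12 libraries in 1 fit, 8 without HSD replicate 2 and HSD ICH replicate 3, and 0 to 1 on leaving out 1 library. For the difference of the diet effects, lower genes (1) numbered 4 without ND replicate 1 and HSD replicate 2, 2 without these and HSD ICH replicate 3, and 0 to 7 on leaving out 1 library. The causes of these moves were not tested.

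Replicate numbers are shared across groups, and the main tests did not pair the samples by them. Correlations of deviations ran from −0.191 to 0.0943 between libraries of the same number and from −0.176 to 0.262 between others. Deviations from the mean of only 3 libraries cannot decide whether samples of the same number belong together. With the replicate block, lower genes numbered 12, 18, 12 and 25 in HSD against ND, HSD ICH against ND ICH, ND ICH against ND and HSD ICH against HSD, and 2 in the difference of the diet effects. Adjusted calls with the block were 7 in ND ICH against ND and 2 in HSD ICH against HSD.

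The lowest count of the set was 7 reads, for Ifit3 in HSD ICH replicate 2.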
